A study of Mus musculus with 2 samples.

Results

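The mitosis, spindle and cytokinesis genes described here are 53 genes chosen by name for their roles in cell division, of 20655 genes with a named probe on the arrays. All 53 had at least 1 probe, and 51 were measured, which means well above background on both arrays. Total RNA from newborn mouse lens was hybridised to 1-colour Agilent arrays, with 1 control array and 1 knockout array. Both samples came from postnatal day 0 mice of a mixed C57BL/6 background. The control was labelled wild-type, with litter mates named as the comparison, and the other sample a lens-specific knockout of Foxp1, which encodes a forkhead transcription factor. The treatment label names Foxp1-flox/flox and Pax6-L-Cre for both samples, so whether the control mice carried Cre is not settled by the labels, nor is which cells the Cre acts in. Whether lenses of several animals were pooled was not stated. With 1 array per genotype there was no spread between animals, no test across samples was possible, and every difference below is a difference between these arrays.

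A cell enters mitosis when cyclin B and its kinase partner become active. It then condenses its chromosomes, attaches them to the spindle through kinetochores, and waits at the spindle checkpoint until attachment is complete. The anaphase-promoting complex then destroys cyclin B and securin, the chromosomes part, and the cell is divided by cytokinesis. In the newborn lens, division takes place in the epithelium on the anterior surface, most of all near the equator, whereas fibre cells leave the cell cycle as they elongate. Most of these genes are transcribed late in the cell cycle. Many of their promoters hold a CCAAT box, bound by the factor NF-Y, and an element named CHR with the core TTTGAA, bound by the MuvB complex, which is joined by repressors in resting cells and by B-Myb and Foxm1 in dividing cells.

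RefSeq promoter windows of the GRCm38.p6 build, from 250 bases before to 50 bases after the transcription start, were matched by symbol for 46 of the 53 genes, with 51 windows in all. The letters TTTGAA on either strand were present in 35 of the 51 windows (68.6%), against 16% of the 21263 windows of protein-coding genes. CCAAT on either strand was present in 40 windows (78.4%), against 38.2%. Both motifs, matches of which can share at most 1 base, were present in 32 windows (62.7%), against 6.38%. The forkhead core TGTTTAC was present in 3 windows (5.88%), against 3.01%. Such matches describe the letters and are not measured binding sites. The 120 bases before the start are shown for 5 genes, with CCAAT and TTTGAA matches on either strand in capitals. The stretch of Ccnb2 holds CCAAT alone, and that of Pttg1 holds neither. Cdc20, Ube2c and Ccnb2 are shown because they read higher on the knockout array, Bub3 because it has both motifs and did not read higher, and Pttg1 because its brighter probe read higher and this stretch has neither motif.
Cdc20 (GRCm38.p6, chr4:118437344-118437463, minus strand): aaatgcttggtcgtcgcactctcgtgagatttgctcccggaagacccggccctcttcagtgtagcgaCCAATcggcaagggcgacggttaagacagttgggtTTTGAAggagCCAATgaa
Ube2c (GRCm38.p6, chr2:164769809-164769928, plus strand): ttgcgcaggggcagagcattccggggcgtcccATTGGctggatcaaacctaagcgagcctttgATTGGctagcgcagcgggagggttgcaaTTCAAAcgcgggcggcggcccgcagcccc
Ccnb2 (GRCm38.p6, chr9:70421555-70421674, minus strand): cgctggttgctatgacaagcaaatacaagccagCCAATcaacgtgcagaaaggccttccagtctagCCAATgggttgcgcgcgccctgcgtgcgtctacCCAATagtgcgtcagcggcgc
Bub3 (GRCm38.p6, chr7:131560250-131560369, plus strand): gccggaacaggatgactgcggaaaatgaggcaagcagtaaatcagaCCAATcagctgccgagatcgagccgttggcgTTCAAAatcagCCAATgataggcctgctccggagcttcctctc
Pttg1 (GRCm38.p6, chr11:43425982-43426101, minus strand): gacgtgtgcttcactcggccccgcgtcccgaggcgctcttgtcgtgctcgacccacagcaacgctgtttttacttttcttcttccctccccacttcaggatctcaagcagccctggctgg

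Signals are spot intensities in arbitrary units, given as the geometric mean where a gene had several measured probes, and in each pair of signals the control comes first. A difference is the log2 signal on the knockout array minus that on the control array, after the 75th percentile of each array was subtracted. Those percentiles were 283 and 279.9, so scaling between the arrays by this rule changed little. Signals of different probes cannot be set against each other, and only the same probe is compared between arrays. The error given is the spot noise, the SD expected of a difference, estimated from probes that each array carries 5 or more times. It fell from 0.29 for the dimmest of 5 signal classes to 0.08 for the brightest, and it holds no variation between animals, dissections or labelling reactions. Foxp1 itself read 3.17-fold lower on the knockout array, with probe differences of -1.82, -1.84 and -1.33.

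As a group, the mitosis genes read higher on the knockout array by a modest amount. Their median difference was 0.42 on the log2 scale, or 1.34-fold, with an SD of 0.31 over genes and a range from -0.75 to 0.77. The median over all 14254 measured genes was 0.01. Of the 51 measured genes 45 lay above 0 and 6 below, where 50.9% of all measured genes lay above 0. At a size of 1.3-fold, 30 of the 51 (58.8%) were higher, against 9.13% of all measured genes, 2 were lower, against 19.2%, and 19 lay between. None was 2-fold higher or lower (0 of 51), against 1.02% and 5.86% of all genes. The signals of the 51 genes summed to 38446 in the control and 52117 in the knockout, a ratio of 1.36. Bright probes weigh most in such a sum. In whole-lens RNA, a larger share of dividing cells and more of these transcripts per cell cannot be told apart.

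**Figure D1:**
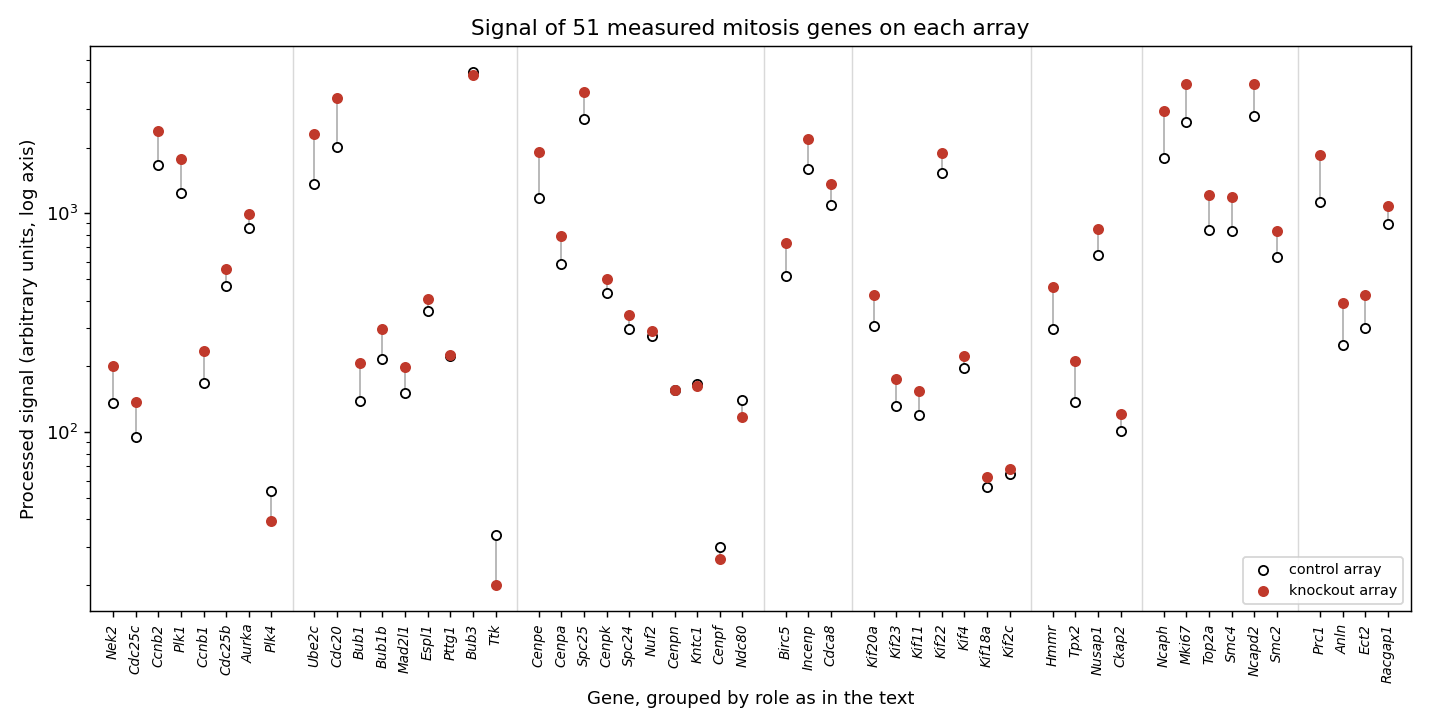
Processed signal (arbitrary units, log axis) of the 51 measured genes in the control (open circles) and in the knockout (filled circles), joined by a line per gene and grouped in the order mitotic entry, checkpoint and anaphase, kinetochore, passenger complex, kinesins, spindle assembly, condensin and chromosome structure, and cytokinesis. The filled circle lies above the open one in most genes, and below it for Plk4, Ttk, Bub3, Kntc1, Cenpf, Ndc80 and, by under 1 unit, Cenpn.

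The count depended on the scaling between arrays. With the 75th percentile taken over the probes above background on both arrays, 18 of the 51 genes were at least 1.3-fold higher, against 5.53% of all genes. Under scaling by array medians, which raised the median of all genes by 1.08, 50 were, against 89.7%. The gap between the median of the mitosis genes and the median of all genes was 0.41 under each of these scalings. They shift all genes alike, so this gap could not change between them. It was 0.38 after quantile normalization and 0.41 after loess, with 32 and 31 genes at least 1.3-fold higher against 21.7% and 17.3% of all genes. The share of all genes at least 1.3-fold lower was 8.15% and 9.86% under those settings.

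**Figure D2:**
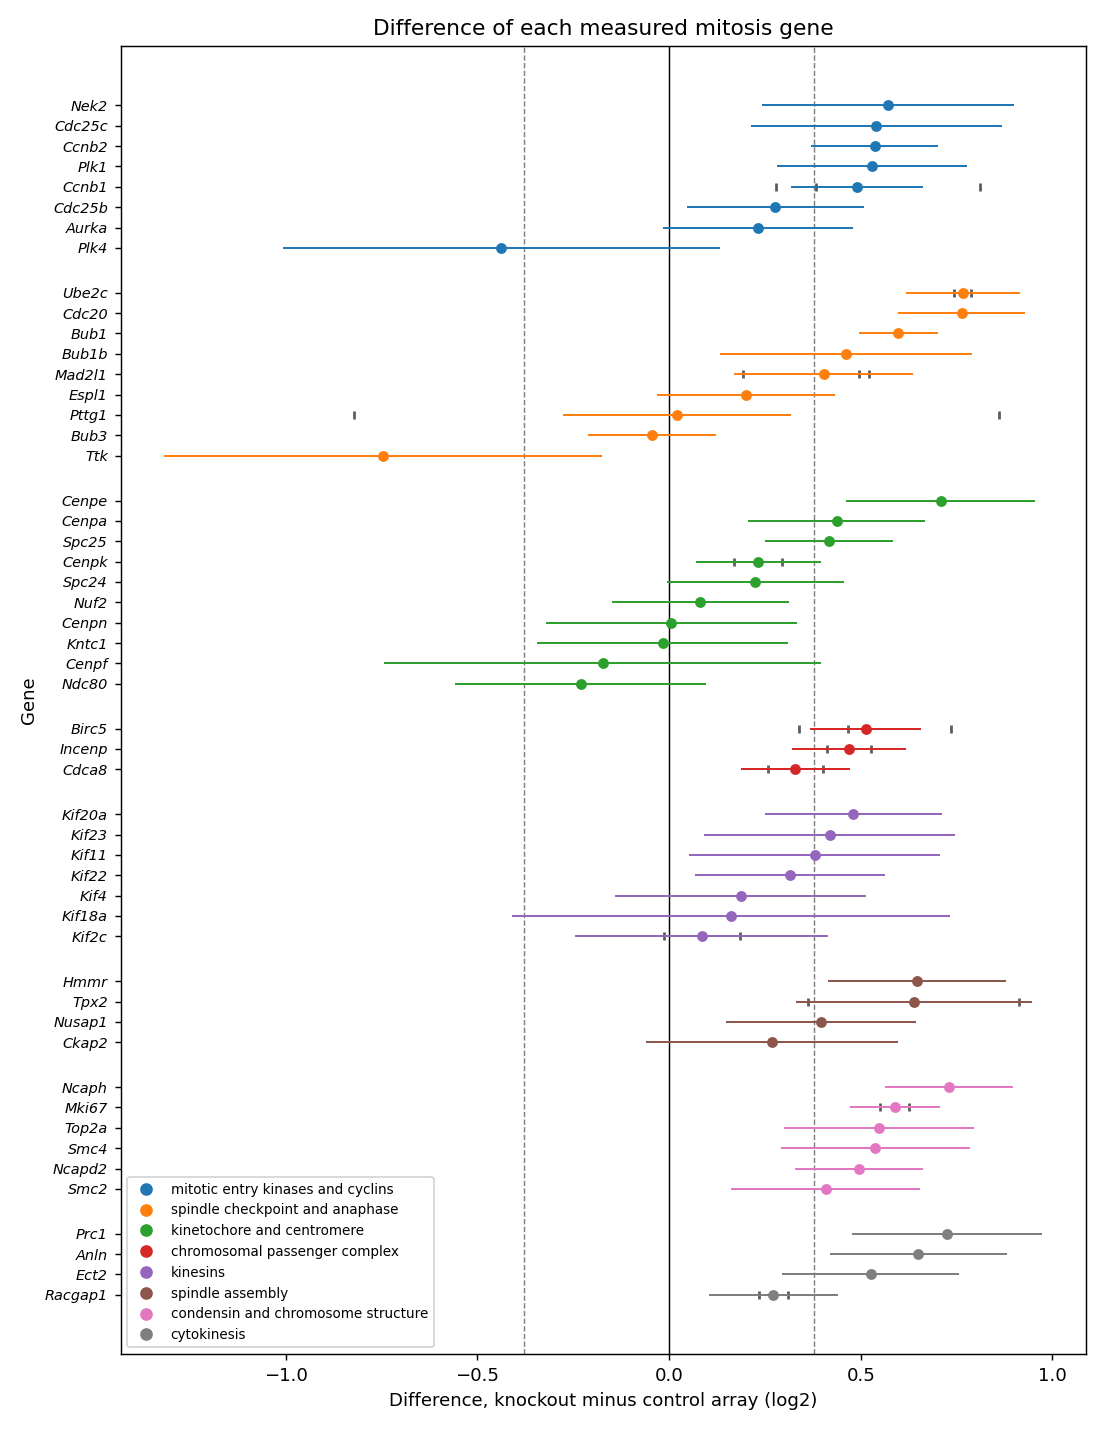
Difference between the knockout and the control array (log2) for each measured gene, coloured by role. Points are the mean over measured probes, bars are 2 times the spot noise SD on each side, small ticks are single probes where a gene had several, and dashed lines mark 1.3-fold. Condensin genes all lie beyond the right dashed line, kinetochore genes spread from -0.23 to 0.71, and Ttk and Plk4 lie beyond the left dashed line.

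Beside spot noise, 35 of the 51 differences were higher by more than 2 SD of the noise, 1 was lower by more than that, and 15 lay within it. Of all measured genes 19.9% were higher and 22.3% lower by more than 2 SD. Each of the 30 genes at least 1.3-fold higher was among the 35. That overlap followed from the sizes chosen. A size of 1.3-fold is 0.38 on the log2 scale, and the largest spot noise SD among the 30 was 0.16. Of the 66 measured probes of these genes 58 lay above 0 and 8 below. Where the control signal was at least 100, 50 of 53 probes lay above 0, and below that signal 8 of 13 did. By gene, 50.9% of all measured genes lay above 0. That was 67.8% at or above their median signal and 34% below it. Of the 12 genes with several measured probes, 10 had every probe above 0, and the median gap between the highest and the lowest probe was 0.17. Matching shares over all probes, or over all genes with several probes, are not given here.

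Genes of mitotic entry had a median difference of 0.51. Of the 8, 5 were at least 1.3-fold higher, against 9.13% of all measured genes, and 1 was as much lower, against 19.2%. Ccnb2, a B-type cyclin, read 1665 in the control and 2392 in the knockout, a difference of 0.54 with a spot noise SD of 0.08. Ccnb1, the main mitotic cyclin, was read by 3 probes, with signals of 97.1 and 169, 455 and 587, and 109 and 131. All 3 were higher on the knockout array, with differences of 0.81, 0.38 and 0.28. Plk1, the polo kinase that drives several steps of mitosis, read 1234 and 1764, a difference of 0.53. Nek2, a centrosome kinase that helps the centrosomes part, had the largest difference of the group, 0.57 from 136 to 200.4.

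The CDC25 phosphatases remove the inhibiting phosphates from the cyclin-dependent kinase. Cdc25c read 95.0 and 137, a difference of 0.54, and Cdc25b 465 and 559, a difference of 0.28. Aurka, the kinase of the spindle poles, differed by 0.23, which was within 2 SD of its spot noise. Plk4 was the 1 gene of the group below 0. It encodes the kinase that starts centriole duplication, and it read 54.1 and 39.6, a difference of -0.44 that lay within 2 SD of the spot noise of such dim probes (SD 0.29). The median of all genes in the dimmest of 5 equal signal bins was -0.50. Plk4 turned to 0.15 after loess and to 0.44 after quantile normalization.

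Checkpoint and anaphase genes held both the highest and the lowest differences of all 51. Their median was 0.40. Of the 9, 5 were at least 1.3-fold higher, against 9.13% of all measured genes, and 1 was as much lower, against 19.2%. The other 3 lay between. Ube2c, the ubiquitin-conjugating enzyme of the anaphase-promoting complex, was read by 2 probes, from 1513 to 2510.1 and from 1239 to 2121. The 2 differences, 0.74 and 0.79, lay close together, and their mean of 0.77 was the highest of the 51. Cdc20, the activator of the same complex, read 2009.8 and 3380.3, a difference of 0.76 or 1.70-fold. Espl1, separase, the protease that cuts the ties between sister chromatids, differed by 0.20, within 2 SD of its spot noise.

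Securin, encoded by Pttg1, holds separase inactive until anaphase, and its probes disagreed. The brighter probe read 1770 in the control and 3186 in the knockout, a difference of 0.86, whereas the dim probe read 28.3 and 15.8, a difference of -0.82. The gene mean of 0.02 therefore describes neither probe. With the brightest probe alone Pttg1 would rank above Ube2c, and after loess and quantile normalization the gene mean was 0.60 and 0.68.

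Bub1, the checkpoint kinase of the kinetochore, offered the most precise reading, because its probe was printed 10 times on each array. The control spots read between 129 and 152 with a median of 138, and the knockout spots between 194 and 227 with a median of 208. No spot of either array reached into the range of the other. The mean difference was 0.60 ± 0.08 (SD over 10 spots), with single spots from 0.46 to 0.70. These are spots of 1 labelled RNA per array and not separate animals.

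**Figure D3:**
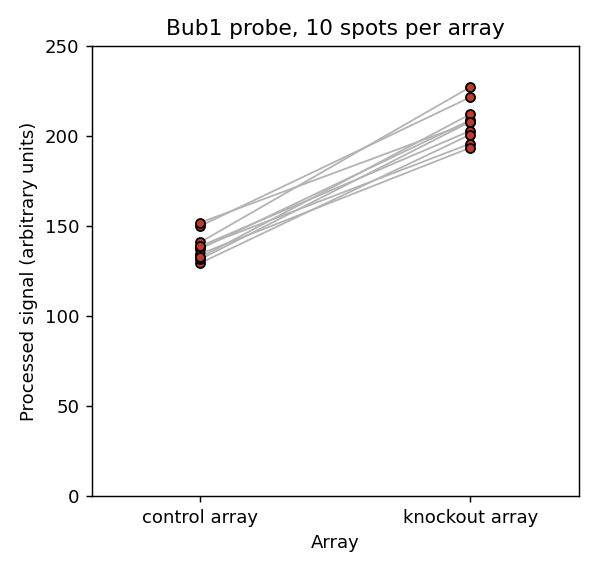
Processed signal (arbitrary units) of the 10 Bub1 spots on the control and the knockout array, with a line joining spots at the same position. All control spots lie between 129 and 152, and all knockout spots between 194 and 227.

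The other checkpoint genes did not move as one. Bub1b, a subunit of the mitotic checkpoint complex, read 217 and 296, a difference of 0.46. Mad2l1, which in that complex binds Cdc20, was read by 3 probes at 0.50, 0.52 and 0.19, with a mean of 0.40. Bub3, the remaining subunit, read 4444 and 4269, a difference of -0.04 at a spot noise SD of 0.08. Of the 28 mitosis genes at or above the median signal of all measured genes, Bub3 was the only 1 below 0. Ttk, the kinase Mps1 that starts checkpoint signalling, had the lowest difference of the 51, -0.75 from 33.8 to 20.0. That dim reading turned to 0.32 after loess and 0.57 after quantile normalization.

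Kinetochore and centromere genes had a median of 0.15, the smallest of the 8 groups in this setting. Of the 10, 3 were at least 1.3-fold higher, against 9.13% of all measured genes, and 0 were as much lower, against 19.2%. The other 7 lay between. The group median was 0.03 with the percentile over probes above background on both arrays, and 0.33 with brighter probes alone, where kinesins had 0.32. Cenpe, a kinesin that carries chromosomes to the spindle equator, was highest, from 1173 to 1899, a difference of 0.71. Cenpa, the histone H3 variant that marks centromeres, read 589 and 790.35, a difference of 0.44. Cenpk and Cenpn, subunits of the inner kinetochore network, differed by 0.23 and 0.01. Cenpf, a large outer kinetochore protein, was dim at 30.0 and 26.3, a difference of -0.17 that turned to 0.82 after loess. Kntc1, a subunit of the complex that brings checkpoint proteins to the kinetochore, lay at -0.02.

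The Ndc80 complex is the main microtubule coupler of the kinetochore, built of 4 subunits, and its genes did not read alike. Spc25 read 2700.5 in the control and 3572 in the knockout, a difference of 0.42 with a spot noise SD of 0.08. Spc24 read 296 and 343, a difference of 0.23. Nuf2 read 276 and 289 with its 1 measured probe, a difference of 0.08. Ndc80 itself read 139.9 and 118, a difference of -0.23 with a spot noise SD of 0.16, the lowest of the kinetochore group. It stayed below 0 after loess, at -0.08, and after quantile normalization, at -0.05.

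The chromosomal passenger complex corrects faulty attachments and later guides cytokinesis. Its kinase gene Aurkb could not be compared, as its 1 probe was not well above background on either array. The other members all lay above 0, against 50.9% of all measured genes, with a median of 0.47. Birc5, survivin, was read by 3 probes at signals of 4250 and 5815, 502 and 629, and 64.9 and 106.98. Their differences were 0.47, 0.34 and 0.74. Incenp, the scaffold of the complex, differed by 0.53 and 0.41 with its 2 probes, and Cdca8, borealin, by 0.40 and 0.26. The means of the 3 genes were 0.51, 0.47 and 0.33.

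All 7 mitotic kinesins lay above 0, against 50.9% of all measured genes, with a median of 0.32. Of the 7, 3 were at least 1.3-fold higher, against 9.13%. Kif20a, which acts at the central spindle in cytokinesis, had the largest difference, from 306 to 423, or 0.48. Kif23, the motor of the centralspindlin complex, read 132 and 175, a difference of 0.42. Kif11, the motor that pushes the spindle poles apart, read 119.7 and 154, a difference of 0.38 that only just reached 1.3-fold. Kif22, Kif4 and Kif18a, which act on chromosome arms or at chromosome alignment, differed by 0.32, 0.19 and 0.16. Kif2c, a depolymerising motor at centromeres, was lowest, with a mean of 0.09 over probes that read 83.3 and 93.7, and 50.3 and 49.3. The differences of Kif4, Kif18a and Kif2c lay within 2 SD of spot noise.

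Spindle assembly genes had a median of 0.52, with 3 of 4 at least 1.3-fold higher, against 9.13% of all measured genes. Hmmr, a spindle protein and hyaluronan receptor, read 296 and 459, a difference of 0.65. Tpx2, which activates Aurora A and nucleates microtubules near chromosomes, was read by 2 probes from 347 to 647 and from 54.6 to 69.6. Both were higher on the knockout array, but the brighter probe differed by 0.91 and the dimmer by 0.36. Nusap1, which bundles spindle microtubules, differed by 0.40. Ckap2 was smallest at 0.27, from 102 to 121.

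Condensin and chromosome structure had a median of 0.54. Of its 6 measured genes, 6 were at least 1.3-fold higher, against 9.13% of all measured genes. Condensin I consists of the SMC pair and 3 further subunits and folds mitotic chromosomes. Ncaph, its kleisin subunit, read 1788 and 2939, a difference of 0.73. Ncapd2 read 2793 and 3902, a difference of 0.50. Smc4 and Smc2, the SMC pair, differed by 0.54 and 0.41. The remaining subunit gene, Ncapg, was not well above background on either array, at 5.18 and 14.1, and was left out of every count. Top2a, the topoisomerase that untangles sister chromatids, read 837 and 1212, a difference of 0.55. Mki67, the proliferation marker Ki-67 that coats mitotic chromosomes, was read by 2 probes from 2900 to 4434 and from 2364 to 3432. The Mki67 differences of 0.63 and 0.55 lay within 0.08 of each other.

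Cytokinesis genes had a median of 0.59, with 3 of 4 at least 1.3-fold higher, against 9.13% of all measured genes. Prc1, which bundles the microtubules of the central spindle, read 1124 and 1839.6, a difference of 0.72. Anln, anillin, the scaffold of the contractile ring, read 249.8 and 388, a difference of 0.65. Ect2, which starts assembly of the contractile ring at the division plane, differed by 0.53, from 298 to 425. Racgap1, the partner of Kif23 in centralspindlin, differed by 0.31 and 0.23 with its 2 probes, a mean of 0.27. That was the smallest difference of the group, with a spot noise SD of 0.08.

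The median difference was lower for dim genes than for bright ones, among the mitosis genes and among all genes. The 28 mitosis genes at or above the median signal of all measured genes had a median difference of 0.49, where all genes as bright had one of 0.08. Of the 28, 27 lay above 0, against 67.8% of all genes as bright, 20 were at least 1.3-fold higher, against 9.22%, and 0 were as much lower, against 3.42%. The shares of those genes 2-fold higher or lower were 0.842% and 0.393%, with 0 of the 28 in either.

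The 23 dimmer mitosis genes had a median of 0.23, where all genes as dim had one of -0.17. Of the 23, 18 lay above 0, against 34% of all genes as dim, 10 were at least 1.3-fold higher, against 9.04%, and 2 were as much lower, against 34.9%. The shares 2-fold higher or lower there were 1.21% and 11.3%, again with 0 of the 23. When all measured genes were divided into 5 equal bins by signal, 47 of the 51 mitosis genes lay above the median of their own bin. In the dimmest bin the 5 mitosis genes had a median of -0.17 and all genes one of -0.50. In the next bin up, the 12 mitosis genes had a median of 0.41 and all genes one of -0.10. In the 3 brighter bins the mitosis genes had medians of 0.26, 0.49 and 0.54, without a steady order from bin to bin, and all genes 0.04, 0.09 and 0.08.

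The 10 spike-in RNAs, added in known amounts before labelling, also read lower in the knockout at low signal. The dimmest, at 19.2 and 54.1 in the control and 3.88 and 6.10 in the knockout, differed by -2.30 and -3.13. Those knockout signals lie below 12.1, the lowest of any gene spot called well above background on that array. In the control the lowest was 20.6, above the 19.2 but below the 54.1. Both knockout readings and the control reading of 19.2 were thus at the floor, but the control reading of 54.1 was not. Measured genes were called well above background on both arrays. Of these, Plk4 also read 54.1 in the control, and Ttk and Cenpf read 33.8 and 30.0. The next spike-in, from 81.4 to 37.2, differed by -1.12, and the spike-ins at 284 and 566 in the control by -0.11 and -0.19. The 5 brightest, from 1534 up, lay between -0.02 and 0.01. The part of this slope in the readings of Ttk, Plk4, Cenpf and the dim Pttg1 probe was not tested, apart from the loess values given above.

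**Figure D4:**
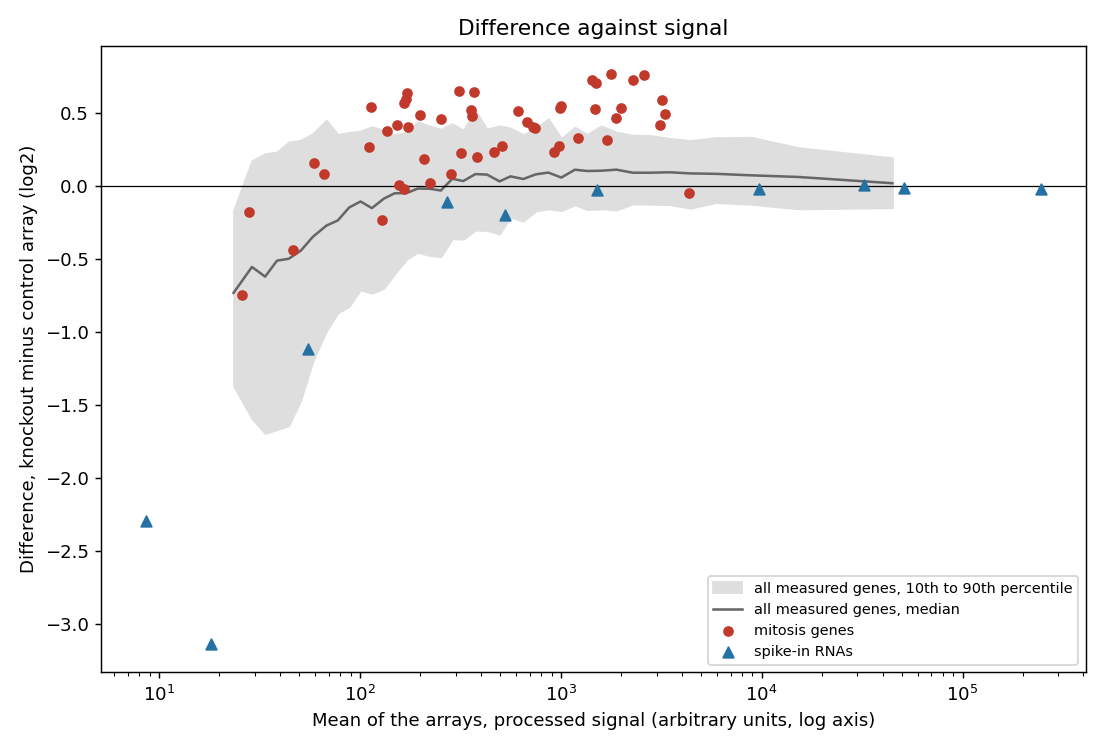
Difference between the knockout and the control array (log2) against the mean signal of the arrays (arbitrary units, log axis) for the mitosis genes (circles) and spike-in RNAs (triangles), with the median of all measured genes as a line and their 10th to 90th percentile as a band in signal classes of equal size. Most circles lie above the grey median line, while the gene median and the spike-ins fall below 0 at low signal.

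Differences were also set beside the promoter motifs, with no test. The 31 measured genes with TTTGAA in a promoter window had a median difference of 0.41 and the 14 without it one of 0.40. For CCAAT the medians were 0.42 over the 34 genes with it and 0.16 over the 11 without. Their ranges overlapped widely, from -0.75 to 0.77 and from -0.44 to 0.73. Cdc20 and Bub3, both with a CHR and 2 CCAAT matches in the stretches shown, differed by 0.76 and -0.04.

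Further lists place these genes within the division programme. Among 74 other mitosis genes, chosen for the same processes, 68 were measured, with a median of 0.26. Of these, 25 passed 1.3-fold upward, against 9.13% of all measured genes, and 3 downward, against 19.2%. Aspm, a spindle pole protein whose human form is linked to brain size, read 161 and 295, a difference of 0.89. Wee1, the kinase that holds back mitotic entry, read 141 and 249, a difference of 0.83. Against that direction, Cit, citron kinase of the contractile ring, read 112 and 29.2, a difference of -1.92, and Spdl1, which brings dynein to the kinetochore, read 95.3 and 37.3, a difference of -1.34. The spike-in that differed by -1.12 had a knockout signal of 37.2, and the part of low signal in both genes was not tested.

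The regulators and the standing machinery had medians nearer to 0 than the 51 mitosis genes together. The kinetochore and centromere genes among the 51 had one of 0.15. Of 13 measured transcription regulators of mitotic genes, 0 passed 1.3-fold in either direction, against 9.13% of all measured genes upward and 19.2% downward. In lists this short, few genes would pass at those shares. Of the 13, 10 lay above 0, against 50.9% of all measured genes, and the median was 0.14. Foxm1, the forkhead activator of late cell cycle genes, differed by 0.33, from 107.2 to 133, and Mybl2, B-Myb, by 0.29. Lin52, a MuvB subunit, lay at -0.32 and Rbl2, a repressor partner of MuvB, at 0.27. The 15 anaphase-promoting complex genes had a median of 0.06, which was 0.05 above the median of all genes. Of the 15, 0 were at least 1.3-fold higher, against 9.13%, and 1 was as much lower, against 19.2%. Ube2s and Anapc4 differed by 0.28 and 0.27, Anapc7 by -0.25, and the dim Anapc10 by -0.72. For cohesin, which holds sister chromatids together, the median of 12 genes was 0.16. Of the 12, 0 were at least 1.3-fold higher and 1 was as much lower, against the same shares. Stag2, Rad21 and Wapl differed by 0.36, 0.34 and 0.34, and Esco2, a dim gene at 65.1 and 30.4, by -1.08.

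S phase genes, which act in DNA replication before mitosis, had a median of 0.30. Of the 20, 18 lay above 0, against 50.9% of all measured genes and 67.8% of those at or above the median signal. Past 1.3-fold, 6 of the 20 were higher, against 9.13% of all measured genes, and 1 was lower, against 19.2%. Mcm3 and Mcm4, subunits of the replicative helicase, differed by 0.60 and 0.48. Rrm2, which makes deoxynucleotides, differed by 0.56, and the dim loading factor gene Cdc6 by -0.50. Whether the mitosis and S phase lists differ was not tested, as no test across samples is possible here.

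**Figure D5:**
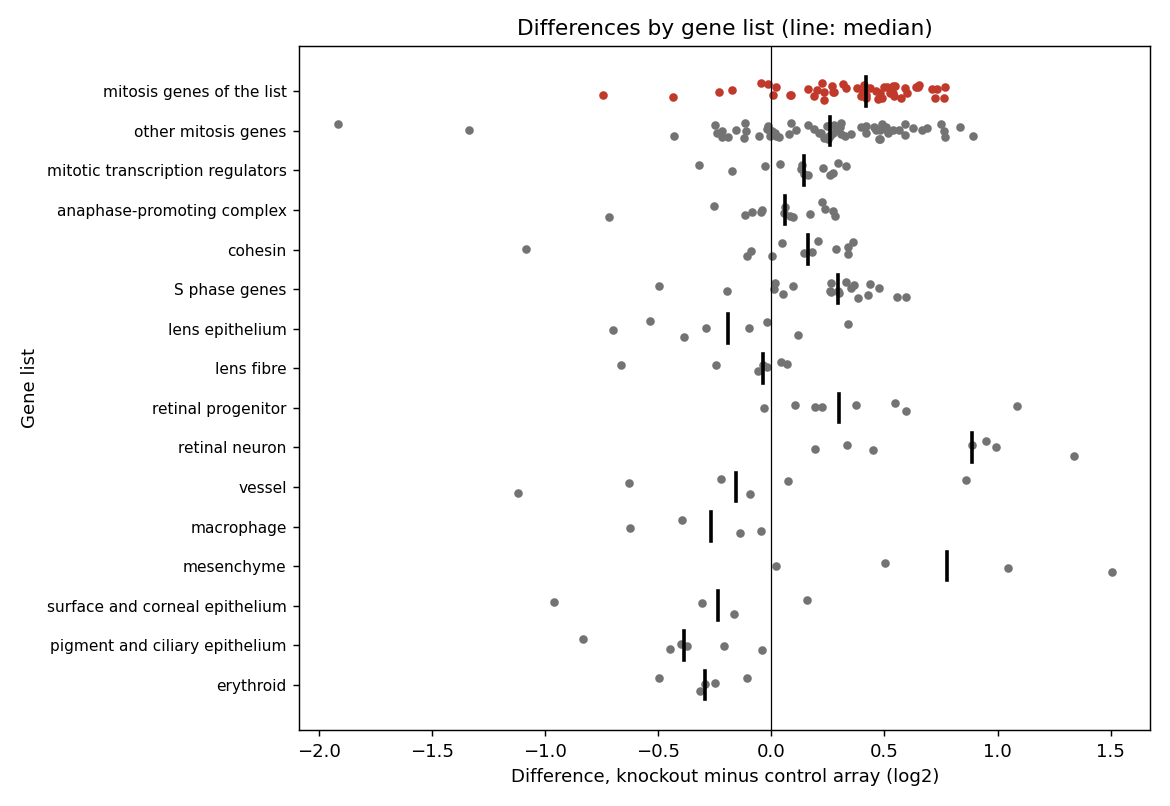
Difference between the knockout and the control array (log2) for single measured genes of each list, with the list median as a vertical line. The mitosis genes have a median of 0.42, other mitosis genes 0.26, S phase genes 0.30, the anaphase-promoting complex 0.06, retinal neuron markers 0.89 and lens epithelium markers -0.19.

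Markers of the cells that a lens sample can hold are given beside these values, since dividing cells could come from more than 1 tissue. Lens identity was plain on both arrays, with Crygd, a fibre crystallin, at 472020 and 448321. Lens epithelium markers, the cells that divide in the lens, were all measured, 8 of 8. They summed to 101831 in the control and 78270 in the knockout, with a median difference of -0.19, and 3 of the 8 were past 1.3-fold, all downward, against 19.2% of all measured genes. Clu made up most of these sums, and the other 7 markers summed to 6350.3 and 5876, a ratio of 0.925. Foxe3 and Cdh1 lay above 0, at 0.34 and 0.12. Lens fibre markers, 7 measured of 8, had a median of -0.04 and sums of 1220437 and 1172282.

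Retinal progenitor markers, of a tissue that still divides at birth, were also all measured, 8 of 8. They summed to 14218 and 17955, with a median difference of 0.30. The median was 0.29 above that of all genes, and 0.14 above it after quantile normalization. Of the 8, 7 lay above 0, against 50.9% of all measured genes, and 3 were at least 1.3-fold higher, against 9.13%. Among the 8 markers Fabp7 read 777 and 1635, and Six6, Sfrp2 and Hes5 differed by 0.60, 0.55 and 0.37. Retinal neuron markers, 7 measured of 8, summed to 2806 and 4713 with a median of 0.89, or 0.46 after normexp background correction. Mesenchyme markers, 4 measured of 6, had a median of 0.77, or 0.45 after normexp and 1.29 after quantile normalization, and summed to 342 and 511, with Dcn and Lum above background on the knockout array only.

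Sums here are over the measured markers, and the brightest probes weigh most in them. The other marker lists had medians below 0. Pigment and ciliary epithelium markers, 6 of 6 measured, had a median of -0.39 and sums of 3044 and 2410.4. Erythroid markers, 5 of 6, had a median of -0.30 and sums of 15938 and 13117, and macrophage markers, 4 of 6, one of -0.27 and sums of 586 and 481. Vessel markers, 6 of 6, had a median of -0.16, which turned to 0.02 after loess, and sums of 1483 and 1554. Most of these sums was Kdr, at 973 and 1013. Surface and corneal epithelium markers, 4 of 6, had a median of -0.24, which turned to 0.12 after loess, and sums of 1749 and 1877. Trp63, at 1587 and 1753, made up most of them, and the corneal keratin Krt12 was not well above background on either array. The part of retinal or mesenchymal RNA in the mitosis gene differences was not tested.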

How the data were processed

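Total RNA of newborn mouse lens was measured on 1 control and 1 knockout array. Each spot holds an intensity on a linear scale, which the authors deposited as scanner output of Agilent Feature Extraction 10.7.3.1, per the file headers, with background subtracted in the processed signal and no scaling between arrays recorded. Of 59305 gene spots per array, 67.5% were well above background in the control and 56.9% in the knockout, and 0 were saturated. The number of arrays limits the precision.

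Control spots and spots flagged as outliers were left out. The log2 processed signal minus the 75th percentile of each array was averaged over the spots of a probe. A probe counted when over 50% of its spots carried the flag for signal well above background, on each array. Gene values are means over such probes. Probes carry accessions, and 27225 of 55655 matched a RefSeq transcript of GRCm38.p6, whereas 28430 did not. The array layout is annotated to mm9, so that table served for names, neighbours and promoter sequences alone. In it 10 of the 53 genes overlap another protein-coding gene (Aurka, Cdc20, Cenpk, Cenpn, Kif20a, Kif18a, Nusap1, Ncapg, Prc1 and Anln), and 4 have a named pseudogene (Ccnb1, Ccnb2, Kif4 and Kif22), so their readings are less certain.

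Spot noise came from 281 measured probes carried 5 or more times by each array, pooled in 5 signal classes. With 1 array per group no p-value was computed, and sizes of 1.3-fold (0.38 on the log2 scale) and 2-fold were used. The steps were tested on simulated data. The members, lists, sizes and motifs were chosen with earlier results of these data known. All members may be named. Of each other list up to 4 genes with the largest absolute difference are named, along with Foxp1. The markers Crygd, Clu, Foxe3, Cdh1, Fabp7, Six6, Sfrp2, Hes5, Dcn, Lum, Kdr, Trp63 and Krt12 were named after their values were seen. Alternatives used Python 3.11.15, statsmodels 0.14.6 (loess, span 0.3) and limma 3.58.1 (normexp).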

Additional observations from a re-analysis of the deposited data

How the results depend on the processing

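The median difference of the mitosis genes was above 0 under each of the 9 alternatives, and its gap to the median of all genes lay between 0.33 (normexp) and 0.58 (no filter on background). Scaling by array medians moved the median to 1.50 and put 50 genes at least 1.3-fold higher and 47 at least 2-fold higher, which is the construction of that setting, since it raised every gene by 1.08. With the 75th percentile over probes above background on both arrays, 18 genes were at least 1.3-fold higher, and this setting lowered every gene alike. At 2-fold, 1 gene passed after quantile normalization (Cenpf, a dim gene) and 1 with no filter on background (Ncapg, not well above background on either array). Ttk and Plk4 changed direction after quantile normalization (0.57 and 0.44) and loess (0.32 and 0.15), for which the cause was not tested. Their values of 0.33 and 0.64 under array medians follow from the uniform shift.

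Of 72 subgroup medians under the alternatives, all 72 were above 0, and 14 moved by more than the pooled spot SD of 0.17. The 14 include all 8 under array medians, which the uniform shift moved. With outlier spots kept, the medians were those of the main setting. The sign was therefore fixed in advance under both of these settings. Of 445 single-gene values 290 stayed within their spot noise, 149 moved by more, and the 6 that turned a difference of at least 1.3-fold were those of Ttk and Plk4, including the uniform shift of array medians. With loess and with quantile normalization 49 of the 51 genes lay above 0, and with the 75th percentile over probes above background on both arrays 41 did. The median of all genes in those settings was 0.05, 0.06 and -0.12, and 49, 49 and 45 mitosis genes lay above it. The shares of all genes above 0 in those settings are not given here. Normexp was run on the median spot signal with an offset of 50, chosen after the files were seen, since the mean signal was not a column here. Brighter probes alone kept 37 genes, of which 26 were at least 1.3-fold higher, against 10.3% of all genes in that setting. No paired analysis was possible because each genotype had 1 array. Dim readings are the least precise by spot noise, with an SD of 0.29 at a median signal of 47.7.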
